A study of Mus musculus with 6 samples.

Results

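The Golgi fucosyltransferases other than Fut8 were followed here: the alpha-1,2 enzymes Fut1, Fut2 and Sec1, the alpha-1,3 enzymes Fut4, Fut7 and Fut9, and their relatives Fut10 and Fut11. The genes were listed by name, and their probe sets were found by matching the RefSeq accession in each probe set identifier to a mouse gene symbol. Of 8 listed genes, 7 were measured, by 11 probe sets among the 1246 of the array, which named 909 genes in all. Sec1 was not matched to a named probe set and is not analysed here. Whether any of the 283 unnamed probe sets measures it was not tested.

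The data are 6 expression arrays of total RNA from liver of male mice, with biotin-labelled RNA of 1 sample on each array of a design focused on glycan genes. Of these, 3 came from diabetic mice, which the series describes as insulin-deficient, and 3 from healthy wildtype mice. The study asked whether enzymes of glycan synthesis are less expressed in diabetic liver. The sources used here give neither the way the diabetes was induced nor the strain or age of the mice. The labels number the arrays within each group but do not tie a number to an animal, so the p-values may measure a technical spread only.

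Fucosyltransferases move fucose from GDP-fucose onto a growing sugar chain, and in the Golgi they mostly act late, as capping enzymes. Fut1 and Fut2 place fucose on a terminal galactose and make the H antigen, the precursor of the A and B blood groups. Fut4, Fut7 and Fut9 place it on N-acetylglucosamine and make Lewis x or, where the chain already carries sialic acid, sialyl Lewis x, the sugar that selectins bind on leukocytes. Fut8, which adds core fucose to N-glycans, and the Pofut enzymes, which add fucose directly to protein, act on other acceptors.

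Values are log2 expression values per probe set, so a difference of 1 is a 2-fold change. Array medians lay between 4.93 and 5.06, and the median of all probe set means was 5.0. To check the liver label, 8 hepatocyte markers were read, and all lay far above that median, with means from 8.99 for Igfbp1 to 12.32 for Asgr1. Of these, 4 had higher and 4 lower means in diabetic liver. Mbl2 and Papss2 were called higher (limma adjusted p = 0.041 each), but the 4 calls of the whole array fell to 0 in several alternative fits given below. The insulin-repressed Igfbp1 was not called (limma adjusted p = 0.928). It measured 10.65, 8.90 and 11.52 in diabetic against 6.26, 6.50 and 10.09 in wildtype liver, so that wildtype 3 stood with the diabetic arrays. The table carries no detection calls, so dim signal and background could not be told apart, and the precision is limited by how few arrays there are. The samples are bulk liver, in which fewer cells of a type and less RNA per cell cannot be told apart.

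The matched members of the family sat mostly on the dim side of the array. With each gene represented by its brightest probe set, 2 of 7 genes had means above the median of all probe sets, Fut7 and, narrowly, Fut11. The 7 means had a median of 4.22, at percentile 33.0 of the 1246 probe sets. They spanned 3.05 on the log2 scale, from 5.69 for Fut7 to 2.64 for Fut9. No member differed between diabetic and wildtype liver past the threshold, and the largest difference in either direction, -0.18 for Fut11, was smaller than its own standard error (SE) of 0.24.

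**Figure D1:**
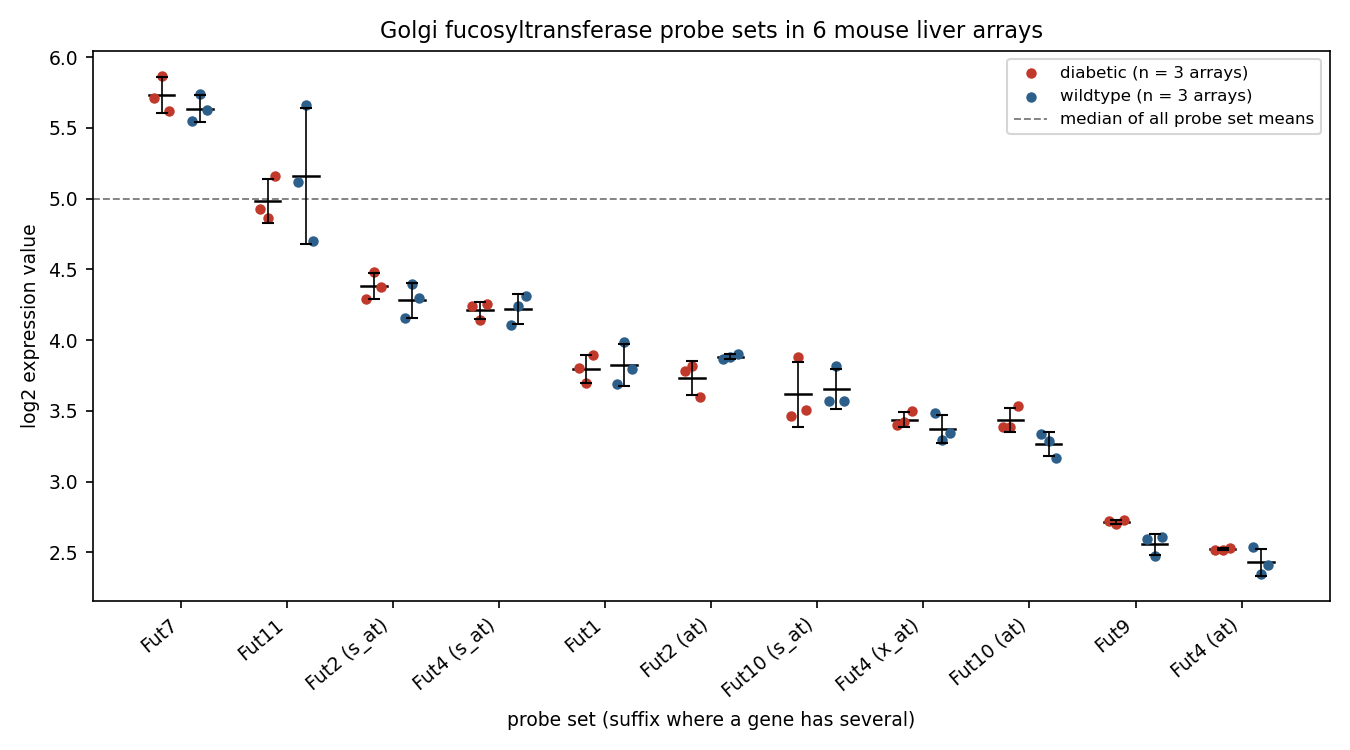
Log2 expression values (vertical axis) of the 11 fucosyltransferase probe sets, ordered by mean level, on 3 diabetic (red, left) and 3 wildtype (blue, right) arrays. Points are arrays, horizontal bars group means and error bars SD; the dashed line is the median of all probe set means. Fut7 alone lies above the line on all 6 arrays, and Fut11 is the one with a wide wildtype spread, from 4.70 to 5.66.

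Fut7, which completes sialyl Lewis x on the selectin ligands of leukocytes, was the brightest of the 7 matched members. It measured 5.71, 5.87 and 5.62 on the diabetic arrays, against 5.55, 5.74 and 5.62 on the wildtype arrays. The groups overlapped between 5.62 and 5.74, with the highest array diabetic and the lowest wildtype. The group means were 5.73 ± 0.13 in diabetic and 5.64 ± 0.10 in wildtype livers (SD, n = 3 each), and differed by 0.10 (SE 0.10, 95% confidence interval -0.14 to 0.33; limma adjusted p = 0.942). Across the 6 arrays it lay between percentiles 60.2 and 63.9.

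Fut4, the other alpha-1,3 enzyme of leukocytes, was covered by 3 probe sets that gave clearly different levels. The brightest one, whose suffix marks probes shared by several transcripts, measured 4.24, 4.14 and 4.25 in diabetic against 4.11, 4.24 and 4.31 in wildtype liver. The groups lay within each other, with a difference of -0.0077 (SE 0.09, 95% confidence interval -0.21 to 0.20; limma adjusted p = 0.99). The middle probe set has a further suffix, x, and whether its probes are shared with other sequences was not tested. It averaged 3.41 over all arrays and differed by 0.06. The dimmest averaged 2.48, at percentile 2.81, and differed by 0.09. The dimmest was flat in diabetic liver, at 2.52, 2.52 and 2.53, against 2.54, 2.35 and 2.41 in wildtype liver.

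Fut9, a Lewis x synthase best known from brain, was the dimmest member. It measured 2.72, 2.70 and 2.73 in diabetic liver, against 2.59, 2.47 and 2.61 in wildtype liver. Every diabetic array lay above every wildtype array. The difference was 0.16 (SE 0.07, 95% confidence interval -0.02 to 0.34), or 1.12-fold, and did not pass (limma adjusted p = 0.928; exact two-sided permutation p = 0.1, the smallest that 3 arrays against 3 allow). At percentile 4.42 of the array, this separation lay at a level where signal and background were not told apart.

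Of the alpha-1,2 enzymes, Fut1 makes the H antigen mainly on type 2 chains. It measured 3.80, 3.70 and 3.90 in diabetic and 3.69, 3.98 and 3.80 in wildtype liver, so the groups overlapped. The difference was -0.03 (SE 0.11, 95% confidence interval -0.28 to 0.23; limma adjusted p = 0.99).

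Fut2, the secretor enzyme of epithelia and secretions, was covered by 2 probe sets that disagreed in sign. The brighter one, with the same suffix of shared probes, measured 4.29, 4.48 and 4.37 in diabetic and 4.15, 4.40 and 4.29 in wildtype liver. It differed by 0.10 (SE 0.10, 95% confidence interval -0.13 to 0.33; limma adjusted p = 0.942), and the groups overlapped. Within same-numbered pairs the differences were 0.14, 0.08 and 0.08, and limma with the replicate number as a block gave an adjusted p of 0.854. The dimmer one measured 3.78, 3.82 and 3.60 in diabetic liver, all below the wildtype values of 3.87, 3.88 and 3.90. That difference was -0.15 (SE 0.09, 95% confidence interval -0.36 to 0.06, limma adjusted p = 0.928, exact permutation p = 0.1). With 1 array left out it ran from -0.19 without diabetic 2 to -0.08 without diabetic 3. Which transcripts share such probes, for Fut2, Fut4 or Fut10, is not stated in the sources used here. In the RefSeq gene table Fut2 and Sec1 stand next to each other on chromosome 7 with 0 protein-coding genes between them, and Fut1 stands 3 protein-coding genes away from Fut2.

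Fut10 and Fut11, relatives of the alpha-1,3 enzymes whose acceptors are less settled, behaved differently from each other. Fut10 was measured by 2 probe sets made for different transcripts of the gene, of which the brighter has the suffix of shared probes. The brighter read 3.47, 3.88 and 3.50 in diabetic and 3.57, 3.81 and 3.57 in wildtype liver, and differed by -0.04 (SE 0.14, 95% confidence interval -0.37 to 0.30; limma adjusted p = 0.99). The dimmer read 3.39, 3.39 and 3.53 in diabetic liver, above all wildtype values of 3.34, 3.29 and 3.17. Its difference was 0.17 (SE 0.09, 95% confidence interval -0.04 to 0.38; limma adjusted p = 0.928; exact permutation p = 0.1). The 2 probe sets of Fut10 thus pointed in opposite directions, as those of Fut2 did.

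Fut11 had the widest spread of the family. It measured 4.93, 4.87 and 5.16 in diabetic liver, and 5.12, 5.66 and 4.70 in wildtype liver. The wildtype arrays held both the highest and the lowest of the 6 values. Its SD was 0.15 in diabetic and 0.48 in wildtype liver (n = 3 each), and the difference of -0.18 had a 95% confidence interval of -0.75 to 0.40 (limma adjusted p = 0.975). The value turned with single arrays, to 0.08 without wildtype 2 and to -0.41 without wildtype 3.

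The order of the brightest probe sets, from high to low, was Fut7, Fut11, Fut2, Fut4, Fut1, Fut10 and Fut9. Probe sets differ in how strongly they bind their target, so this order is of signal and not of transcript number. Fut7 exceeded Fut11 on 6 of 6 arrays by 0.61 on average, although their ranges overlapped through wildtype 2. Fut11 lay above Fut2, Fut4 above Fut1 and Fut10 above Fut9 with no overlap of the ranges. Fut2 and Fut4 (4.33 and 4.22) overlapped, with Fut2 higher on 5 of 6 arrays, and so did Fut1 and Fut10 (3.81 and 3.63), with Fut1 higher on 5 of 6.

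Probe sets of the same gene also gave different signals. The means of the brightest and the dimmest lay 1.74 apart for Fut4, whose dimmest is at a level not told apart from background, 0.52 for Fut2 and 0.28 for Fut10. Over the 48 genes of the array with several probe sets, the median gap was 0.70. With the plainly suffixed probe sets of Fut2, Fut4 and Fut10 in place of the brighter ones, a choice made after the data were seen, Fut4 moved to the last place, below Fut9, and Fut1 and Fut2 had the same mean of 3.81. Fut7 and Fut11 stayed first and second.

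**Figure D2:**
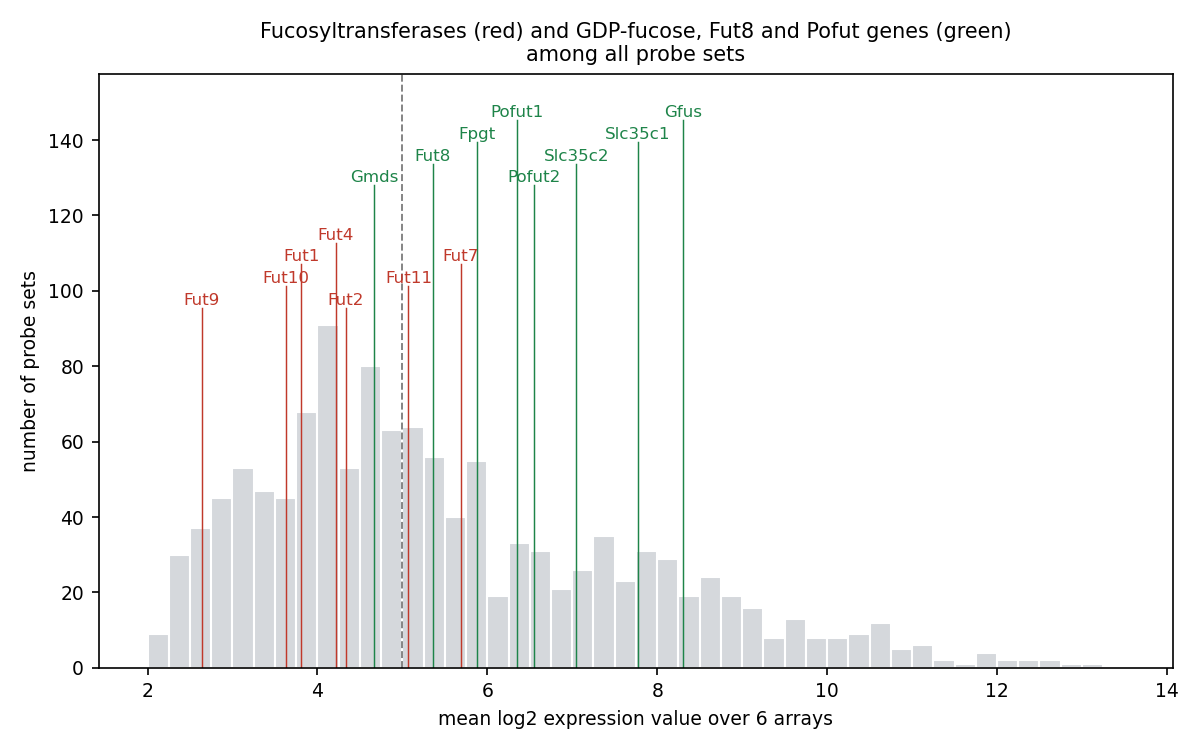
Histogram of the mean log2 expression value over 6 arrays for all 1246 probe sets (vertical axis, number of probe sets), with the brightest probe set of each fucosyltransferase in red and of the GDP-fucose, Fut8 and Pofut genes in green. The dashed line is the median of 5.0. Of the fucosyltransferases, 5 of 7 lie left of it, while of the 8 other fucose genes only Gmds, at 4.67, does.

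Over the 7 genes, 3 had a higher and 4 a lower mean in diabetic liver, 0 passed limma's adjusted threshold and 0 had an unadjusted p under 0.05. Fut9 alone among the 7 had one under other variance settings, with an unadjusted p of 0.0276 in limma with trend and robust eBayes (95% confidence interval 0.02 to 0.29; adjusted p = 0.947) and of 0.022 in limma without moderation (0.04 to 0.28; adjusted p = 0.927). The share of all probe sets with an unadjusted p under 0.05 in these other fits is not given here. The SD of Fut9 was 0.014 in diabetic and 0.074 in wildtype liver, at percentile 4.42 of the array. In the main fit 0.321% of all 1246 probe sets passed the adjusted threshold, and 2.97% had an unadjusted p under 0.05. Counts of 0 among so few members do not stand apart from that background. The median difference of the 7 was -0.008, against 0.002 over all probe sets. The median size of a difference, without its sign, was 0.096 for the 7 and 0.087 for all probe sets.

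The groups did not overlap at 3 of 11 fucosyltransferase probe sets, those of Fut9, the dimmer Fut2 and the dimmer Fut10. Over the array this held for 7.87% of probe sets. For 2 of the 3, diabetic liver was higher, against a background of 4.57%, and for 1 it was lower, against 3.29%. They lay at percentiles 4.42, 23.1 and 15.7 of the array, none passed the limma threshold, and for Fut2 and Fut10 the brighter probe set did not repeat the direction. With 1 probe set per gene, 1 of 7 genes had groups that did not overlap.

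The confidence intervals bound what the arrays could have missed at these signal levels. For all 11 probe sets the interval excluded a change of 1 on the log2 scale in either direction. A change of 0.5 was excluded for 10 of 11, the exception being Fut11. This was 90.9% of the family's probe sets, against 71.4% of all probe sets and 89.2% of those below the median level, so the narrow intervals were shared by dim probe sets at large. A dim probe set can read flat when its transcript changes, so these bounds apply to the signal only.

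**Figure D3:**
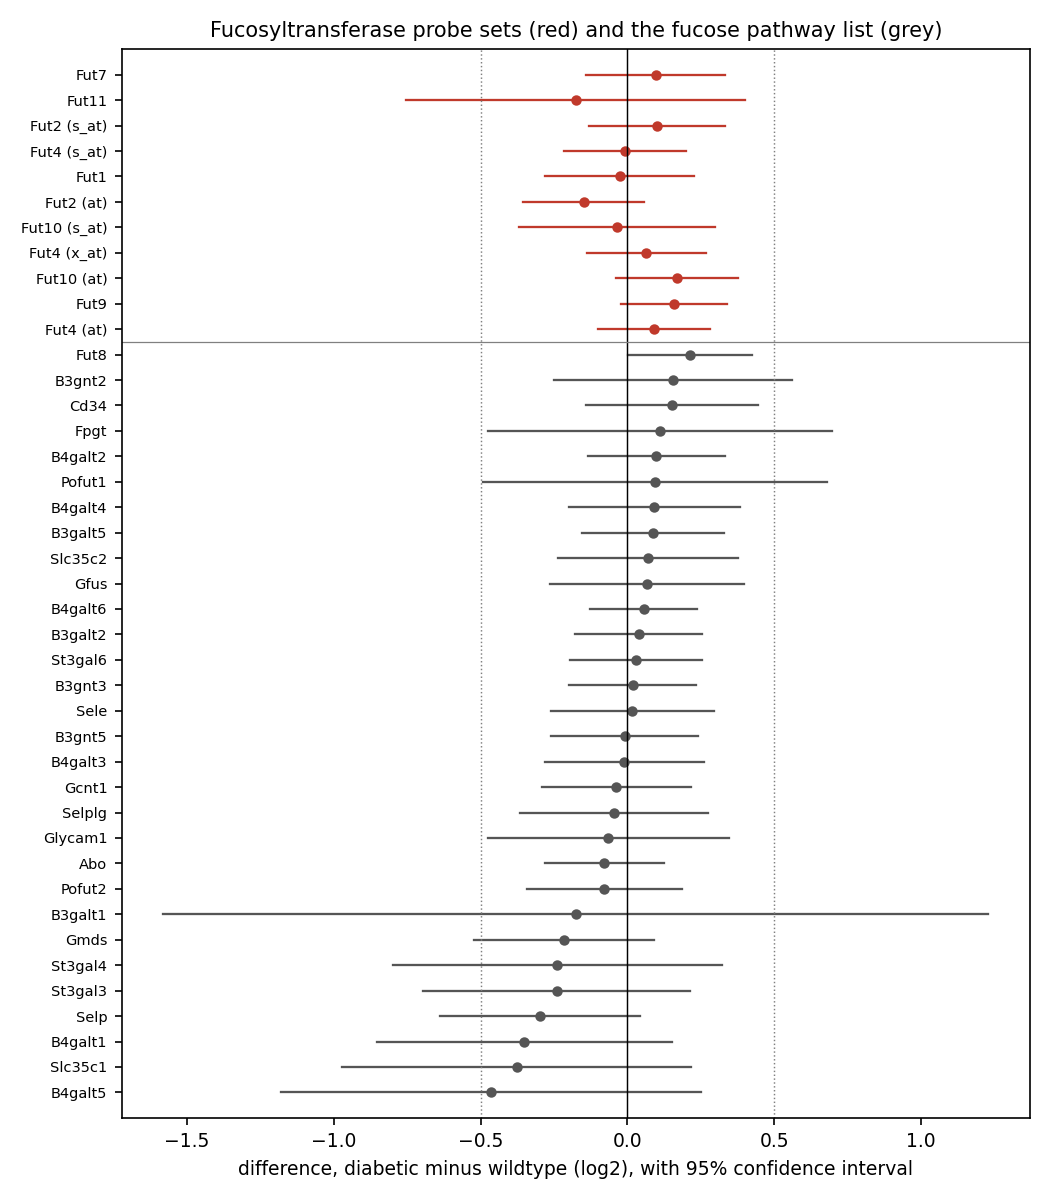
Difference between diabetic and wildtype liver (diabetic minus wildtype, log2, horizontal axis) with its 95% confidence interval from limma, for the 11 fucosyltransferase probe sets (red) and for the 30 measured genes of the fucose pathway list (grey). Dotted lines mark -0.5 and 0.5. All red intervals include 0, and only that of Fut11 reaches past a dotted line.

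Single arrays decided the sign for several members. Leaving out 1 array turned the sign for 4 of 7 genes: Fut1 (-0.09 without wildtype 1, 0.05 without wildtype 2), Fut4 (-0.06 without wildtype 1, 0.04 without wildtype 3), Fut10 (-0.17 without diabetic 2, 0.05 without wildtype 2) and Fut11. It kept the sign for Fut2 (0.04 without wildtype 1 to 0.16 without wildtype 2), Fut7 (0.03 without diabetic 2 to 0.15 without diabetic 3) and Fut9 (0.12 without wildtype 2 to 0.18 without wildtype 3). Without wildtype 2, all 7 means were higher in diabetic liver, by as little as 0.001 for Fut4, and 0 were called.

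For some members the arrays of one replicate number stood together in both groups. For Fut7, Fut2 and Fut10, at their brightest probe sets, the array numbered 2 was the highest of its group in both diabetic and wildtype liver. The values on the arrays numbered 2 were 5.87 in diabetic and 5.74 in wildtype liver for Fut7, 4.48 and 4.40 for Fut2, and 3.88 and 3.81 for Fut10. This pattern, noticed after the data were seen, held for 3 of 11 family probe sets and for 13.7% of all probe sets. The arrays numbered 2 also had the highest median of their group, at 5.03 in diabetic and 5.06 in wildtype liver. After all arrays were shifted to a common median, it held for 3 of 11 and for 4.33% of all. With the replicate number as a block in limma, the SE was 0.08 against 0.10 without it for Fut7, 0.07 against 0.10 for Fut2 and 0.08 against 0.14 for Fut10, while it was 0.26 against 0.24 for Fut11. The labels leave the meaning of a shared number unstated. Between same-numbered arrays, 4 of 11 family probe sets differed with 1 sign in all 3 pairs, both of Fut2 and those of Fut9 and the dimmer Fut10, against 25.8% of all probe sets.

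**Figure D4:**
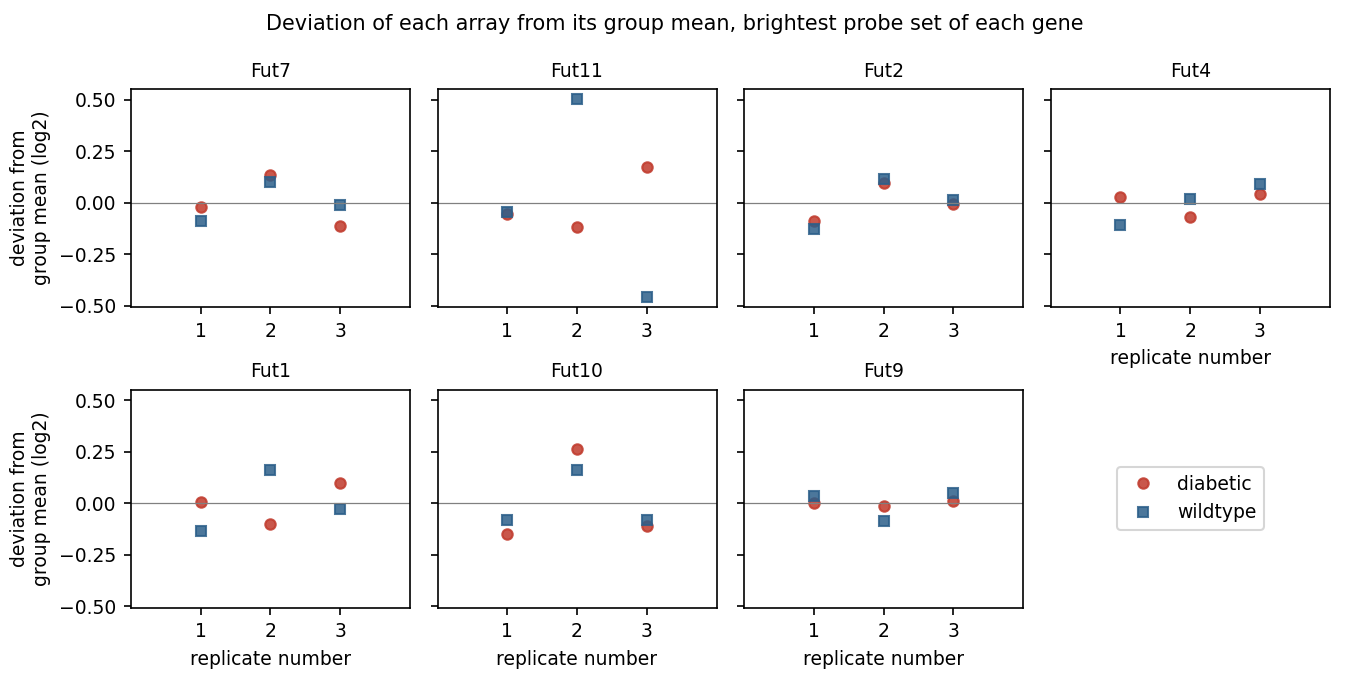
Deviation of each array from its group mean (vertical axis, log2) by replicate number (horizontal axis) for the brightest probe set of the 7 genes, in diabetic (red circles) and wildtype (blue squares) liver. Replicate 2 is the highest of both groups for Fut7, Fut2 and Fut10, while for Fut11 the arrays numbered 2 and 3 deviate in opposite directions in the groups.

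Levels of Fut7 across the 6 arrays ran most closely with Fut2 among the family (Pearson r = 0.84, n = 6 arrays) and then with Fut10 (r = 0.74). The lowest r in the family was -0.64, between Fut11 and Fut9. Among 508 other genes with means above the median, the 3 most like Fut7 were Spock2 (r = 0.945), a proteoglycan, Erbb3 (r = 0.878), a receptor of the epidermal growth factor family, and Muc5ac (r = 0.864), a gel-forming mucin. These values describe 6 arrays that share the normalization and the replicate structure above, and picking the best of 508 genes yields a high r by itself.

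The rest of the fucose pathway had a higher median level, a difference that was not tested. The list, chosen with earlier results of these data known, held 35 other genes, of which 30 were measured. Their median level was 5.63, at percentile 61.3, and 18 of 30 lay above the median of all probe sets. In diabetic liver 15 had higher and 15 lower means, 0 passed the limma threshold, and the median difference was 0.004.

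GDP-fucose supply was represented by 5 of 6 genes. Gfus, the synthase that completes GDP-fucose, measured 8.49, 8.28 and 8.24 in diabetic and 8.47, 8.02 and 8.32 in wildtype liver, at percentile 87.5. Slc35c1, the transporter that carries GDP-fucose into the Golgi, measured 7.70, 7.48 and 7.56 in diabetic and 8.50, 7.89 and 7.48 in wildtype liver. Its difference was -0.38 (SE 0.25, 95% confidence interval -0.97 to 0.22, limma adjusted p = 0.928). It shrank to -0.11 without wildtype 1 and grew to -0.62 without wildtype 3.

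Gmds, the dehydratase that starts the synthesis from GDP-mannose, averaged 4.56 ± 0.05 in diabetic and 4.78 ± 0.23 in wildtype livers (SD, n = 3 each) and differed by -0.22, or by -0.09 without wildtype 2. Fpgt, of the salvage route, differed by 0.11 (-0.10 without wildtype 2, 0.38 without wildtype 1). Slc35c2, a relative of Slc35c1, differed by 0.07 (-0.05 without wildtype 3, 0.18 without wildtype 2). Gfus differed by 0.07, with -0.06 without wildtype 2 and 0.16 without wildtype 1. None of the 5 passed.

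Among the other fucosyltransferases, Fut8 read 5.49, 5.36 and 5.55 in diabetic and 5.26, 5.17 and 5.33 in wildtype liver, with no overlap of the groups. Its difference of 0.21 (95% confidence interval 0.00 to 0.42) was the 1 value in the list with an unadjusted p under 0.05 in the fit without a block (limma adjusted p = 0.928). The differences within same-numbered pairs were 0.23, 0.19 and 0.22, and limma with the block gave an adjusted p of 0.822. Pofut1, which modifies Notch, averaged 6.40 ± 0.09 in diabetic and 6.30 ± 0.51 in wildtype liver and differed by 0.09 (-0.19 without wildtype 3, 0.31 without wildtype 2). Pofut2, which modifies thrombospondin repeats, differed by -0.08 (-0.17 without diabetic 1, -0.01 without diabetic 3). The 2 fucosidases of the list were not matched to a named probe set and so were not analysed here.

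The enzymes that build the chains on which Fut1, Fut2, Fut4, Fut7 and Fut9 act included some of the brightest genes of the list. B4galt5, a galactosyltransferase, measured 8.33, 7.92 and 8.15 in diabetic and 9.16, 8.66 and 7.97 in wildtype liver. Its difference of -0.46 (SE 0.30, 95% confidence interval -1.18 to 0.25; limma adjusted p = 0.928) was the largest of the list in size, and was -0.18 without wildtype 1 and -0.78 without wildtype 3. Of all 13 acceptor chain enzymes, the mean was higher in diabetic liver for 7 and lower for 6, with 0 called. The sialyltransferases St3gal3 and St3gal4, which cap the chains that Fut7 then fucosylates, differed by -0.24 each. With 1 array left out, St3gal3 ran from -0.44 without wildtype 1 to -0.09 without wildtype 2. St3gal4 ran from -0.37 without wildtype 3 to 0.02 without wildtype 1. St3gal6, another such enzyme, differed by 0.03 and Abo, the blood group transferase that extends the H antigen, by -0.08.

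Genes of the selectin system, which reads the product of Fut7, were partly brighter than the family. Selplg, the leukocyte protein that carries sialyl Lewis x to P-selectin, averaged 5.77 ± 0.21 in diabetic and 5.81 ± 0.14 in wildtype liver, at percentile 63.6, close to that of Fut7. Selp, P-selectin of platelets and endothelium, measured 5.59, 5.91 and 5.82 in diabetic and 5.84, 6.27 and 6.10 in wildtype liver. Its difference was -0.30 (SE 0.14, 95% confidence interval -0.64 to 0.04, limma adjusted p = 0.928). With 1 array left out it ran from -0.41 without wildtype 1 to -0.20 without wildtype 2. Between same-numbered arrays Selp was lower in all 3 pairs, with differences of -0.25, -0.36 and -0.29, and with the replicate block the SE was 0.07 and the interval -0.50 to -0.10 (limma unadjusted p = 0.0143, adjusted p = 0.822). Without single arrays the Selplg difference of -0.05 ran from -0.15 without diabetic 2 to 0.06 without diabetic 1. The dim Sele, E-selectin of activated endothelium, differed by 0.02 (-0.06 without diabetic 2, 0.11 without wildtype 1). Glycam1 and Cd34, further protein carriers of selectin ligands, differed by -0.07 (-0.21 without wildtype 1, 0.04 without diabetic 3) and 0.15 (0.07 without diabetic 3, 0.24 without wildtype 3). Of these 5 genes, the mean was higher for 2 and lower for 3, with 0 called.

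Markers of the cells in which Fut4 and Fut7 are best known gave dim to modest signals, and their presence was not tested. Of 14 listed granulocyte, monocyte and macrophage markers, 8 were measured, and 5 of those lay above the median of all probe sets. The 8 ranged from 3.23 for Cd33 to 6.84 for Mrc1. Their mean level per array ran from 5.01 to 5.58 in diabetic and from 5.09 to 5.29 in wildtype liver, and 0 were called. Diabetic 3 was the highest array for some of these markers, and for several of them wildtype 3 was the highest wildtype array. Adgre1 measured 3.81, 3.89 and 5.18 in diabetic and 3.83, 3.81 and 4.32 in wildtype liver. Csf1r measured 6.23, 6.28 and 7.50 in diabetic and 6.44, 6.31 and 6.85 in wildtype liver. For Mrc1 diabetic 3 read 7.28 and wildtype 3 read 7.14, and for Siglec1 they read 4.88 and 4.84. Other markers did not follow: Siglece was lowest of the diabetic values on diabetic 3, at 5.11, Selplg was highest on diabetic 2 and Cxcr2 on wildtype 2. On diabetic 3 Fut7 was the lowest and Fut4, at its brightest probe set, the highest of the diabetic values. Without that array Fut7 and Fut4 differed between the groups by 0.15 and -0.03. Of 10 listed lymphocyte markers, 7 were measured, and 1 of those, Cd22, lay above the median. The mean level of the 7 ran from 3.73 to 3.76 in diabetic and from 3.60 to 3.72 in wildtype liver, with 0 called. The part of these cells in the Fut7 and Fut4 signals was not tested.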

How the data were processed

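Total RNA from liver was measured on 6 arrays, 1 per sample. The deposited values were made by the authors with RMA, per the submitters' processing notes, with no version or settings stated in the sources used here. They were taken as log2 expression values, since the deposited table runs from 2.03 to 13.45. No other per-sample columns were used.

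Of 1246 probe sets, 984 carried a RefSeq accession and 963 were named by unversioned accession through a RefSeq gene table (GRCm38.p6, names and neighbours only). A gene with several probe sets was represented by the one with the highest mean over all arrays; the others are given beside it.

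The 3 diabetic arrays were set against the 3 wildtype arrays in limma 3.58.1 (lmFit, eBayes; R 4.3.3) on the whole table, and p-values were adjusted over its 1246 probe sets by Benjamini-Hochberg, with 0.05 as the threshold. Residual and prior degrees of freedom were 4 and 2.44. Single values were also tested by exact permutation of the arrays. The fit was also run on 20 simulated data sets with 200 of 1246 probe sets changed. It recovered 62.1% of changes of 0.5, 90.4% of changes of 1 and 97.8% of changes of 2. Whether these shares hold for the real arrays, which gave 4 calls, was not tested.

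The members and lists were chosen with earlier results of these data known; 1 gene of the lists is not reported here. Named were all members, the supply, other fucosyltransferase and selectin genes of the list, list genes with an unadjusted p under 0.05 or a difference of at least 0.4, and the 3 genes most like the brightest member; other acceptor enzymes are named as further examples, chosen after their values were seen.

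Deviations from group means correlated at 0.397, 0.138 and 0.162 between arrays numbered 1, 2 and 3, all above the limit of 0.1 for treating the numbers as pairs. The main fit was planned without the pairs, with the block as an alternative. Its SEs, intervals and p-values, given throughout unless a block is named, therefore ignore this pairing. Alternatives were a median shift, quantile normalization, leaving out dim probe sets, trend and robust eBayes, array weights, the replicate block, no moderation, a threshold of 0.10 and leaving out each array.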

Additional observations from a re-analysis of the deposited data

How the results depend on the processing

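No fucosyltransferase was called under any alternative run, with adjusted p of at least 0.761 over 90 refits or other probe sets. The count of 4 called probe sets over the whole array was 0 with the replicate block, with trend and robust eBayes and with the ordinary linear model, and between 0 and 1 with 1 array left out; the cause was not tested. The block changed no call of a fucosyltransferase. The count of 3 members with a higher mean in diabetic liver was 1 without the dimmer probe sets, which keeps only Fut7 and Fut11, and between 3 and 7 with 1 array left out. The median difference of -0.008 ran from -0.063 to 0.076 with 1 array left out and was 0.091 with the plainly suffixed probe sets, a choice made after the data were seen. The calls in the pathway list stayed between 0 and 0 with 1 array left out. Directions turned for Fut4 after quantile normalization (0.014), without diabetic 2 (0.027), wildtype 2 (0.001) or wildtype 3 (0.039) and at its other probe sets (0.064 and 0.091). They turned for Fut10 with array weights (0.024), without diabetic 1 (0.040), diabetic 3 (0.020) or wildtype 2 (0.046) and at its other probe set (0.170). For Fut1 they turned without diabetic 2 (0.025) or wildtype 2 (0.054), for Fut11 without wildtype 2 (0.076) and for Fut2 at its other probe set (-0.149). With 1 array left out, the lowest values were -0.063 for Fut4, -0.166 for Fut10 and -0.092 for Fut1, and Fut11 reached -0.406. The cause was not tested, and without detection calls the low signal limits most of these probe sets.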

Other observations

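B3galt1, which starts type 1 chains and belongs to the list of acceptor chain enzymes, varied more between arrays than any fucosyltransferase. Its brighter probe set measured 7.16, 7.32 and 9.17 in diabetic and 8.58, 7.38 and 8.21 in wildtype liver, and its other probe set 6.53, 6.99 and 8.65 in diabetic and 7.89, 6.96 and 7.68 in wildtype liver. Both probe sets ordered the arrays alike, apart from diabetic 2 and wildtype 2, which changed places. The brighter one, which has the same suffix x as the middle probe set of Fut4, differed by -0.18, by -0.82 without diabetic 3 and by 0.19 without diabetic 1. This gene was chosen after its values were seen.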
